A study of Mus musculus and Homo sapiens with 12 samples.

Results

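The heptad is a group of 7 transcription factors, TAL1, LYL1, LMO2, GATA2, RUNX1, ERG and FLI1, that bind many of the same enhancers in blood stem and progenitor cells. Its members were followed here at the level of their messenger RNA after loss of DDX21, an RNA helicase of the nucleolus. The genes were found by symbol without regard to case, and their raw counts by gene identifier. All 7 were present in both experiments, among 55487 mouse and 78932 human genes in the count tables, and all 7 passed the low-count filter in both.

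Poly(A) RNA was sequenced from 12 libraries, 3 in each of 4 groups. The mouse groups were live LK cells, which lack lineage markers and carry the receptor Kit, from fetal livers of E13.5 embryos. Animals of the WT group had the genotype Ddx21f/f, and the conditional knockout (cKO) group had Vav-Cre; Ddx21f/f, so that both groups carried the loxP-flanked alleles and only the second carried Cre, driven by a promoter of blood cells. The human groups were blood stem cell-like cells differentiated from H1, an established embryonic stem cell line, that received lentivirus shNC-mCherry (control hairpin) or shDDX21-mCherry. Human cells were sorted as CD34+, CD45+, CD43+ and positive for the hairpin vector 2 days after transduction. Nothing in the labels says that the 3 libraries per group came from separate embryos or cultures, so p-values measure only the spread between these libraries, which may be technical. H1 is 1 line, and the label shDDX21 does not say how many hairpin sequences were used.

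TAL1 and its close relative LYL1 are basic helix-loop-helix proteins that bind E-box sequences together with E proteins such as TCF3 and TCF12. LMO2 does not bind DNA itself and bridges these pairs to GATA2, in a complex with the adaptor LDB1. RUNX1 binds DNA with its partner CBFB, and ERG and FLI1 are ETS-family factors that recognise a GGAA core. During red cell development GATA2 gives way to its relative GATA1, and in blood stem cells GATA2, RUNX1 and ERG are needed for the cells to form or persist.

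Promoter sequences of the mouse members are shown here because a gene-level count adds up the transcripts from all start sites of a gene, and because the proteins themselves recognise the short motifs in them. RefSeq promoter windows (build GRCm38.p6) were matched by symbol for 5 of the 7 members, Tal1, Lyl1, Gata2, Runx1 and Erg, with 10 windows in all. Each window holds the 250 bases before a start site, printed 5′ to 3′ on the gene's strand. Capitals mark GGAA, the ETS core, and GATAA, the GATA core, on either strand, so that TTCC and TTATC are also in capitals. The windows of Tal1 and Erg are printed, since these members changed in opposite directions in the mouse cells and each changed in the opposite direction in the human cells.
Tal1, start 1, chr4:115056176-115056425, plus strand: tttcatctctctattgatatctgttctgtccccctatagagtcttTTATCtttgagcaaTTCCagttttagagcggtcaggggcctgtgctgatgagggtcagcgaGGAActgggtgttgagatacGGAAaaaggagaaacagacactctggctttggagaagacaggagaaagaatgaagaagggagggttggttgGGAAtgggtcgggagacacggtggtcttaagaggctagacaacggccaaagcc
Tal1, start 2, chr4:115057561-115057810, plus strand: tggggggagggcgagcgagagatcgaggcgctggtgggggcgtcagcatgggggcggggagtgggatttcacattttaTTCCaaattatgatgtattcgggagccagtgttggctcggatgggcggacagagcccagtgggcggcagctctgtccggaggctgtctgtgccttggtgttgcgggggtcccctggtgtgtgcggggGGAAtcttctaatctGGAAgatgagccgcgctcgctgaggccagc
Erg, start 1, chr16:95586594-95586843, minus strand: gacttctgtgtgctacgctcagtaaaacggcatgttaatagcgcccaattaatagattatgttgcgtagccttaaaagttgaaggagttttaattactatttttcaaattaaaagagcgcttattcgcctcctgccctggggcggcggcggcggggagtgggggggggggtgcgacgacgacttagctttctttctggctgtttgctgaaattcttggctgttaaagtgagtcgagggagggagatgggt
Erg, start 2, chr16:95530366-95530615, minus strand: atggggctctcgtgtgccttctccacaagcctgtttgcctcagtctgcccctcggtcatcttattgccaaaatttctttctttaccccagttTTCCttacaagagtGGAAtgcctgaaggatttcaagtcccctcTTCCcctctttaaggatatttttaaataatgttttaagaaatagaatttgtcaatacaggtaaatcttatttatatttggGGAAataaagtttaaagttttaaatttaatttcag
Erg, start 3, chr16:95459349-95459598, minus strand: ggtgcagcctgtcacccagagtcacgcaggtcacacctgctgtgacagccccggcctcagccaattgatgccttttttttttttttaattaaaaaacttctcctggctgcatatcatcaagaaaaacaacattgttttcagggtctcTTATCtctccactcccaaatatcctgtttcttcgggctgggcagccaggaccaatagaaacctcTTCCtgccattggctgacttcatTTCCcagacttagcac

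The first Tal1 window held 4 GGAA matches and 1 GATAA match, and the second held 3 GGAA matches and 0 GATAA matches. The single Lyl1 window, not printed, held 5 GGAA matches. The 3 Erg windows held 0, 4 and 2 GGAA matches in order, and start 3 also held 1 GATAA match. Over the 10 windows of the 5 matched members, 9 held GGAA and 2 held GATAA, where 93.4% and 22.6% of all 32851 windows of the same length did. The E-box CANNTG was in 3 of the 10 windows and in 66.2% of all windows, and the RUNX sequence TGTGGT was in 0 of the 10 and in 14.0% of all. These are letter matches on both strands and no evidence of binding.

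The libraries held 21116079 to 23898130 counts in mouse and 15289510 to 19798608 counts in human cells. The heptad together took 17424 to 21373 counts per mouse library and 34029 to 41534 per human library. DDX21 itself fell in both experiments. Mouse Ddx21 was at 1410, 1431 and 1432 CPM (read counts relative to library size, scaled by the TMM method) in WT and at 276, 283 and 282 CPM in cKO, 19.7% of the WT mean. Human DDX21 was at 477, 465 and 468 CPM with shNC and at 68.6, 69.2 and 67.0 CPM with shDDX21, 14.5% of the control mean. Kit was expressed in the mouse cells (mean 362 CPM in WT), and Ly6g and Cd3e, which belong to lineages removed by the sort, stayed at or under 0.0405 CPM. Itgam, the myeloid marker Cd11b of the same sort, was detected at 2.18 to 3.45 CPM, and Ptprc, whose B220 form was sorted against, at 67.8 to 104 CPM without a distinction of forms. In the human control cells the sort markers CD34, PTPRC (CD45) and SPN (CD43) were at means of 249, 94.9 and 691 CPM. With shDDX21 their means were 297, 69.4 and 883 CPM (log2 fold changes 0.26, -0.45 and 0.35). The genes of the sort markers thus differed between the human groups themselves. Levels are shares of each library's RNA from a mixed population, so fewer cells of a type and less RNA per cell cannot be told apart.

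A change was called at an adjusted p below 0.05 by the quasi-likelihood test of edgeR, after Benjamini-Hochberg adjustment over all genes tested. In the mouse cells 3 members were higher in cKO (Erg, Fli1 and Lmo2), 1 was lower (Tal1) and 3 were not called (Lyl1, Gata2 and Runx1). Across all 14918 genes tested, 36.5% were called, 20.7% higher and 15.8% lower. The groups did not overlap for 5 of the 7 members, against 49.0% of all genes tested. In the human cells all 7 members were called, 3 higher (TAL1, LYL1 and FLI1) and 4 lower (ERG, GATA2, LMO2 and RUNX1), against 52.7% of 20188 genes called, 25.3% higher and 27.4% lower. The human groups did not overlap for any member, as for 57.4% of all genes. The median log2 fold change of the members was 0.17 in mouse and -0.48 in human cells, where that of all genes tested was 0.0006 and 0.0052. Scaling by total counts in place of TMM moved the share of higher genes among all mouse calls from 56.6% to 68.9%, and no member's direction changed under it.

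**Figure D1:**
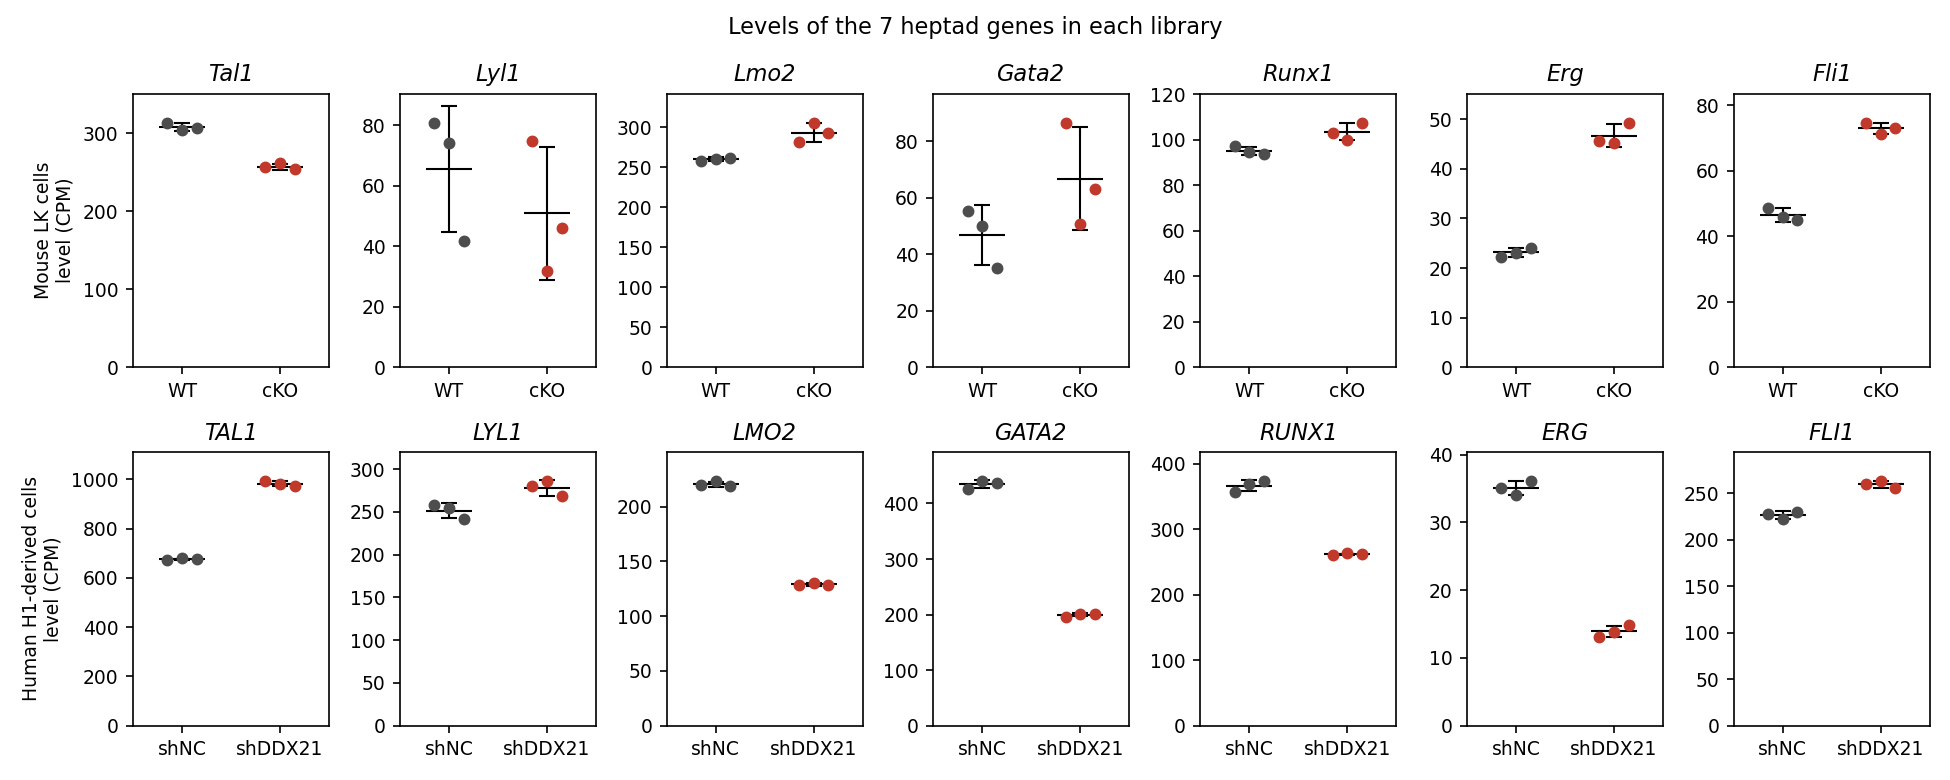
Level of each heptad gene in every library, in CPM (linear axis from 0); each point is 1 library, the long bar the mean of 3 and the error bar 1 SD. Erg and Fli1 separate the mouse genotypes widely, Lyl1 and Gata2 spread within both genotypes, and the 3 human libraries of a group lie close together for all 7 genes.

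Tal1 (chr4:115056426-115071755, GRCm38, plus strand), the helix-loop-helix factor required to specify blood, was lower in the mouse cKO cells. Its level was 313, 304 and 307 CPM in the 3 WT libraries and 256, 262 and 254 CPM in the 3 cKO libraries. Every cKO library was below every WT library. The log2 fold change was -0.26 (SE 0.033, edgeR adjusted p = 0.00091), a fall to 83.5% of the WT mean, and it kept its call under all 16 alternative analyses. Human TAL1 went the other way: it was at 673, 679 and 675 CPM with shNC and at 992, 981 and 974 CPM with shDDX21. All 3 shDDX21 libraries were higher, by 0.54 on the log2 scale (SE 0.020, edgeR adjusted p = 3.05e-36). An opposite-strand gene without a symbol shares exon bases with human TAL1 and had at most 692 counts in a library, where TAL1 had at least 10397. Whether the counting used strand is not given in the sources used here, so reads from such overlaps cannot be assigned.

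Lyl1 (chr8:84701449-84704940) varied more within genotypes than between them. It was at 80.7, 74.1 and 41.8 CPM in WT and at 74.9, 31.7 and 46.1 CPM in cKO. WT replicate 3 lay among the cKO values and cKO replicate 1 among the WT values, so the groups overlapped. The difference of -0.37 (SE 0.34, edgeR adjusted p = 0.437) had a 95% interval from -1.17 to 0.44, which holds falls of over 1 log2 unit as well as rises. It was -0.74 without cKO replicate 1 (adjusted p = 0.0758), -0.61 without WT replicate 3 (0.17), -0.19 without WT replicate 1 (0.756) and -0.10 without cKO replicate 2 (0.823). Mouse Lyl1 also shares up to 229 exon bases with Nfix on the opposite strand, which had up to 662 counts in a library where Lyl1 had at least 783. Human LYL1 was steadier, at 258, 255 and 242 CPM with shNC and 280.0, 286 and 268 CPM with shDDX21. Its groups did not overlap, and the rise was small, 0.15 on the log2 scale (SE 0.027, edgeR adjusted p = 3.3e-06).

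The spread of mouse Lyl1 followed that of GC-rich genes as a class. The share of G and C was taken from the longest annotated transcript of each gene (GENCODE M21). That of Lyl1 is 62.6%, above that of 99.3% of the genes tested, and that of Gata2 is 58.2% (percentile 93.3). The other 5 members lie between the percentiles 25.9 (Fli1) and 75.5 (Lmo2). The median deviation of the 1119 GC-richest genes (10% of those expressed) from their mean over 6 libraries was 0.36, 0.25 and -0.15 log2 in WT replicates 1 to 3, and 0.18, -0.46 and -0.16 in cKO replicates 1 to 3. Lyl1 was highest in the same 3 libraries in which these genes were above their mean and lowest in cKO replicate 2. With a GC-dependent offset per library, an analysis added after the data were seen, the Lyl1 difference was -0.04 (edgeR adjusted p = 0.748). The offset takes no account of genotype, so it also removes any difference between WT and cKO that GC-rich genes share. Whether the Lyl1 difference is of that kind was not tested. With the same offset Erg (0.92), Fli1 (0.55) and Tal1 (-0.31) kept their calls.

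**Figure D2:**
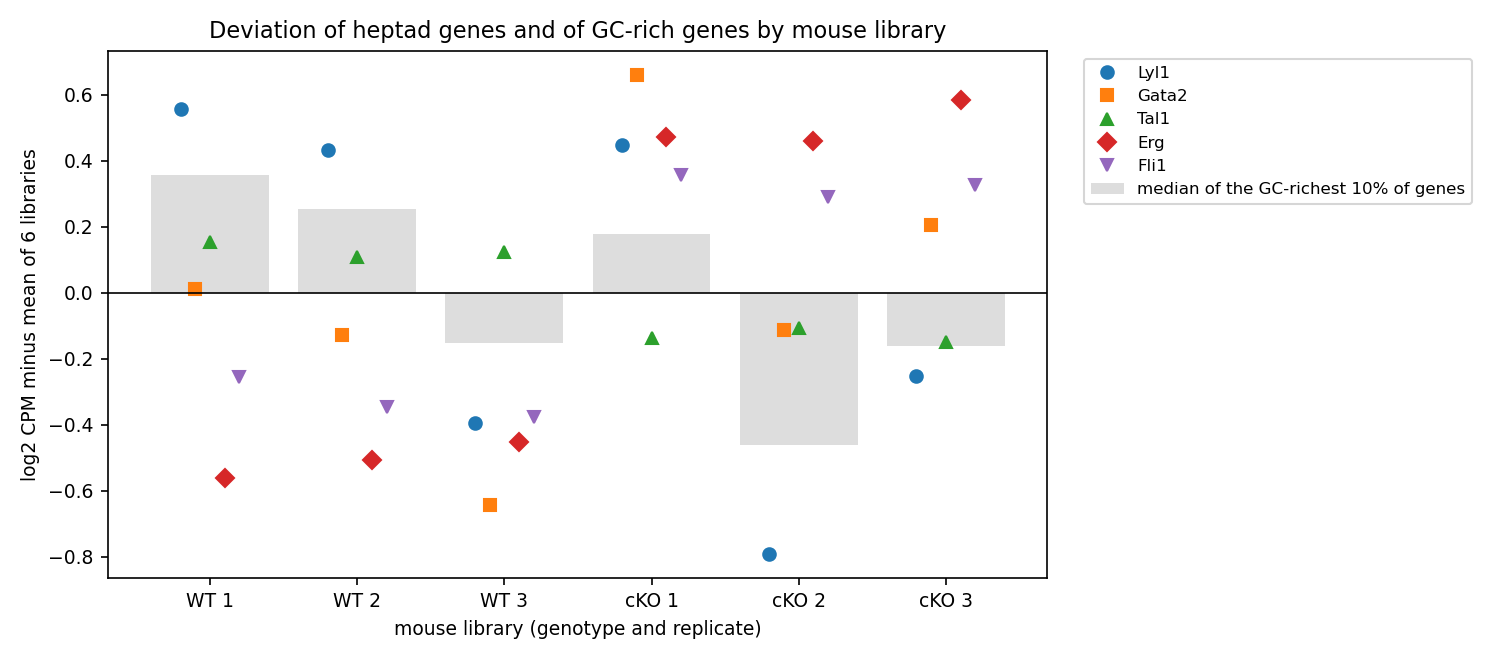
Deviation of log2 CPM from the mean of the 6 mouse libraries, for 5 heptad genes (symbols) and as the median of the GC-richest 10% of genes (grey bars), by library. Lyl1 is above 0 where the grey bar is above 0 and below it where the bar is below, while Erg and Fli1 are below 0 in all 3 WT libraries and above 0 in all 3 cKO libraries.

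Lmo2 (chr2:103957986-103981878), the bridge between the helix-loop-helix pair and GATA2, was slightly higher in cKO. It was at 257, 261 and 262 CPM in WT and at 281, 306 and 293 CPM in cKO. The groups did not overlap, and the difference was 0.17 on the log2 scale (SE 0.040, edgeR adjusted p = 0.0131). The call was lost in 5 of 16 alternatives: DESeq2 (adjusted p = 0.106), the GC offset (0.156), and the omission of WT replicate 1 (0.0569), WT replicate 2 (0.0553) or cKO replicate 3 (0.0547). In the human cells LMO2 fell clearly, from 219.7, 223 and 219 CPM with shNC to 128, 131 and 129 CPM with shDDX21. All 3 shDDX21 libraries were well below the controls, with a log2 fold change of -0.77 (SE 0.029, edgeR adjusted p = 5.77e-36), 58.6% of the control mean.

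Gata2 (chr6:88193891-88207032), the GATA factor of stem and early progenitor cells and of mast cells, was at 55.1, 50.1 and 35.0 CPM in WT and at 86.4, 50.6 and 63.0 CPM in cKO. Only cKO replicate 2 lay within the WT range. The difference of 0.51 (SE 0.23, 95% interval -0.02 to 1.04) was not called (edgeR adjusted p = 0.116). It was called in 5 of 16 alternatives, among them with the GC offset (0.66, adjusted p = 0.000118), with DESeq2 (adjusted p = 0.0238), without cKO replicate 2 (0.69, adjusted p = 0.0328) and without both WT replicate 3 and cKO replicate 2 (0.52, adjusted p = 0.0163). Its direction was the same in all 16, from 0.29 to 0.69. Human GATA2 fell to 45.9% of the control mean, from 426, 440 and 438 CPM with shNC to 196, 202 and 201 CPM with shDDX21. The groups were far apart, with a log2 fold change of -1.12 (SE 0.025, edgeR adjusted p = 1.31e-49). A gene without a symbol overlaps it on the opposite strand, with at most 665 counts against at least 3402.

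GATA1, the relative that replaces GATA2 in red cell and megakaryocyte development, moved against GATA2 in the human cells and was called lower in mouse cells. In mouse it went from 248, 243 and 218 CPM in WT to 216, 161 and 180.3 CPM in cKO (log2 fold change -0.35, SE 0.11, edgeR adjusted p = 0.0382). This call was lost without WT replicate 1 (adjusted p = 0.117), WT replicate 2 (0.113), cKO replicate 2 (0.066) or cKO replicate 3 (0.126). In human cells it rose by 0.37 (SE 0.027, edgeR adjusted p = 3.18e-20). Scaled by exon length, the GATA1 level over the GATA2 level was 9.94, 10.7 and 13.8 in WT against 5.53, 7.06 and 6.33 in cKO. In human cells the same ratio was 1.40, 1.39 and 1.41 with shNC and 3.99, 3.96 and 3.87 with shDDX21. The groups did not overlap in either experiment, with a lower ratio after DDX21 loss in mouse and a higher one in human cells. With 3 libraries against 3, the smallest two-sided exact permutation p for such a ratio is 0.1.

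Runx1 (chr16:92601466-92826149, minus strand), which drives the step from endothelium to blood, was at 97.1, 94.4 and 93.9 CPM in WT and at 103, 100.1 and 107 CPM in cKO. Every cKO library was above every WT library, but the difference of 0.12 (SE 0.043, 95% interval 0.02 to 0.22) missed the threshold (edgeR adjusted p = 0.0594). It was called with total-count scaling (adjusted p = 0.0169), with a filter of 10 counts in every library (0.0386) and without cKO replicate 2 (0.037), and it was 0.02 with the GC offset. Human RUNX1 fell to 71.4% of the control mean, from 357, 369 and 373 CPM to 261, 263 and 262 CPM. The log2 fold change was -0.48 (SE 0.025, edgeR adjusted p = 2.17e-28), and no shDDX21 library reached a control value. The deposited table pairs the human RUNX1 identifier with a second symbol, LOC100506403, so its count may include that locus.

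Erg (chr16:95359169-95586593, minus strand), an ETS factor needed to maintain blood stem cells, had the largest change among the 7 members in both experiments, in opposite directions. In mouse it was at 22.3, 23.1 and 24.0 CPM in WT and at 45.6, 45.2 and 49.3 CPM in cKO. The lowest cKO library was far above the highest WT library, and the rise was 2.02-fold (log2 1.01, SE 0.064, edgeR adjusted p = 3.42e-05). Raw counts were 475 to 518 in WT and 1048 to 1116 in cKO. In the human cells ERG was at 35.1, 34.0 and 36.1 CPM with shNC and at 13.1, 13.8 and 14.8 CPM with shDDX21. The fall was to 39.7% of the control mean (log2 -1.34, SE 0.071, edgeR adjusted p = 4.11e-27), on 233 to 260 counts per shDDX21 library.

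Fli1 (chr9:32422204-32542861, minus strand), the other ETS factor, which acts in stem cells, megakaryocytes and endothelium, was the 1 member called with the same sign in mouse and human cells. In mouse it went from 48.8, 45.8 and 44.9 CPM in WT to 74.7, 71.3 and 73.1 CPM in cKO. The genotypes were clearly apart (log2 fold change 0.65, SE 0.052, edgeR adjusted p = 9.7e-05), a 1.57-fold rise. Human FLI1 rose less, from 228, 222 and 230.3 CPM to 260.0, 263 and 256 CPM (log2 0.19, SE 0.026, edgeR adjusted p = 1.19e-09). SENCR and LOC101929538 share exon bases with human FLI1 on the opposite strand, with at most 528 counts against at least 3397. Scaled by exon length, the FLI1 level over the ERG level was 2.18, 1.97 and 1.86 in WT and 1.63, 1.57 and 1.47 in cKO libraries. In human cells it was 6.13, 6.15 and 6.02 with shNC and 18.7, 17.9 and 16.3 with shDDX21. The ETS pair thus lay closer together in the mouse cKO libraries than in WT, and further apart in the shDDX21 libraries than with shNC.

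The difference between the experiments was tested as an interaction in 1 fit over the 12 libraries and 10331 genes matched by symbol, of which 56.2% were called. It was called for 6 of the 7 members. The mouse effect exceeded the human effect by 2.35 log2 units for ERG (SE 0.087, edgeR adjusted p = 1.69e-09) and by 1.63 for GATA2 (SE 0.25, edgeR adjusted p = 0.000146). It also exceeded it for LMO2 (0.94), RUNX1 (0.61) and FLI1 (0.46), while for TAL1 it was lower (-0.80, SE 0.034, edgeR adjusted p = 5.26e-09). For LYL1 the difference of -0.51 (SE 0.37) was not called (edgeR adjusted p = 0.262), except without cKO replicate 1 (adjusted p = 0.0161). TAL1, LMO2 and ERG were called in both experiments with opposite signs, as were 12.8% of the matched genes, and FLI1 with the same sign, as were 16.8%. The 2 experiments differ in species, in cell source, in the way DDX21 was lowered and in the time since then, which cannot be told apart.

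**Figure D3:**
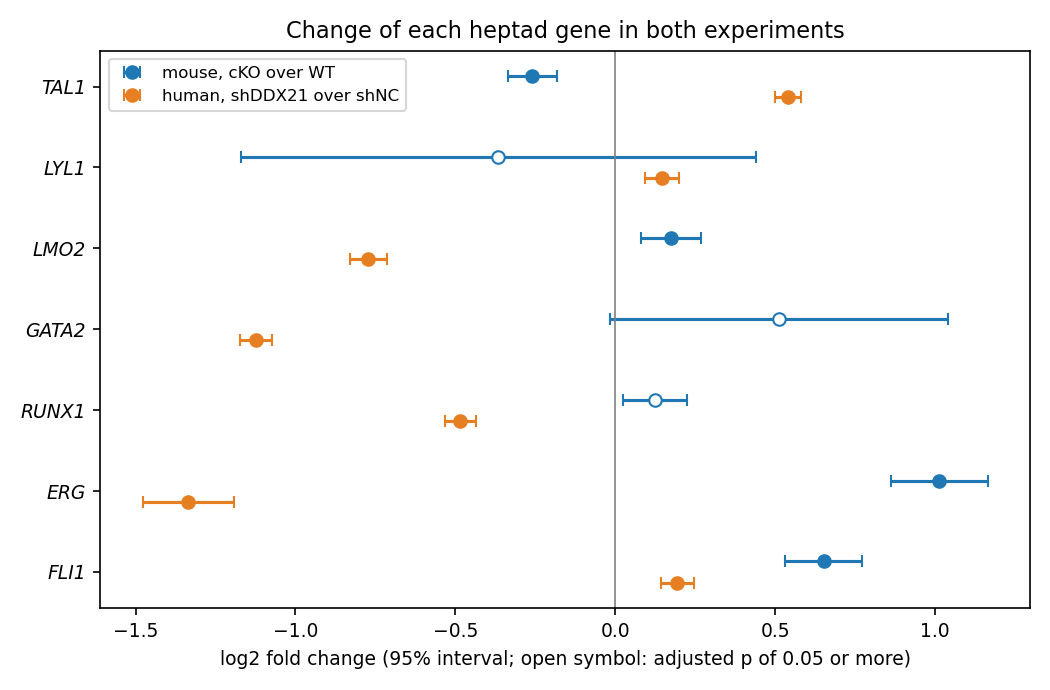
Log2 fold change of each heptad gene after DDX21 loss in the mouse (blue) and human (orange) cells, with 95% intervals; open symbols did not pass the adjusted p threshold of 0.05. ERG lies at 1.01 in mouse and -1.34 in human cells, and FLI1 is to the right of 0 in both.

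Levels were compared between the members per kilobase of exon (RPKM, from the TMM-scaled counts and the deposited exon lengths). The order depends on these lengths, which need not be those of the transcripts present. Mouse Runx1 (12 kb) was at a mean of 95.1 CPM in WT and Fli1 (3.49 kb) at 46.5 CPM, yet Runx1 ranks lower per kilobase. The length of ERG was 3.47 kb in mouse and 7.57 kb in human. Changes between groups of 1 experiment do not depend on the lengths. In the mouse WT cells Lmo2 was highest (120.1 ± 1.2 RPKM, SD, n = 3), followed by Tal1 (70.3 ± 1.1), Lyl1 (32.2 ± 10.3), Fli1 (13.3 ± 0.59), Gata2 (8.66 ± 1.9), Runx1 (7.91 ± 0.14) and Erg (6.68 ± 0.25). Only Gata2 and Runx1 were neighbours whose ranges overlapped. In cKO Erg (13.48 ± 0.65) stood beside Gata2 (12.4 ± 3.4), with overlapping ranges, and Runx1 (8.61 ± 0.31) was last. The ranges of Lyl1 and Fli1 also overlapped there, since Fli1 had risen to 20.9 ± 0.49 RPKM.

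In the human control cells TAL1 was highest (118 ± 0.47 RPKM, SD, n = 3), and GATA2 (88.4 ± 1.5), LYL1 (80.6 ± 2.7) and LMO2 (76.2 ± 0.78) were close behind it. FLI1 (28.2 ± 0.55), RUNX1 (23.5 ± 0.53) and ERG (4.63 ± 0.14) followed, and no neighbours overlapped. With shDDX21, TAL1 rose to 172 ± 1.6 RPKM and GATA2 (40.6 ± 0.56) dropped from the second to the fourth place, under LYL1 (89.2 ± 2.8) and LMO2 (44.6 ± 0.43). TAL1 made up 28.1% to 28.3% of the summed heptad RPKM in the shNC libraries and 42.9% to 43.6% in the shDDX21 libraries, while the GATA2 share went from 20.7% to 21.3% down to 10.0% to 10.4%. The summed heptad level itself was 418 to 423 RPKM with shNC and 393 to 401 RPKM with shDDX21. In mouse the Tal1 share was 26.3% to 28.5% in WT and 20.6% to 22.3% in cKO.

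**Figure D4:**
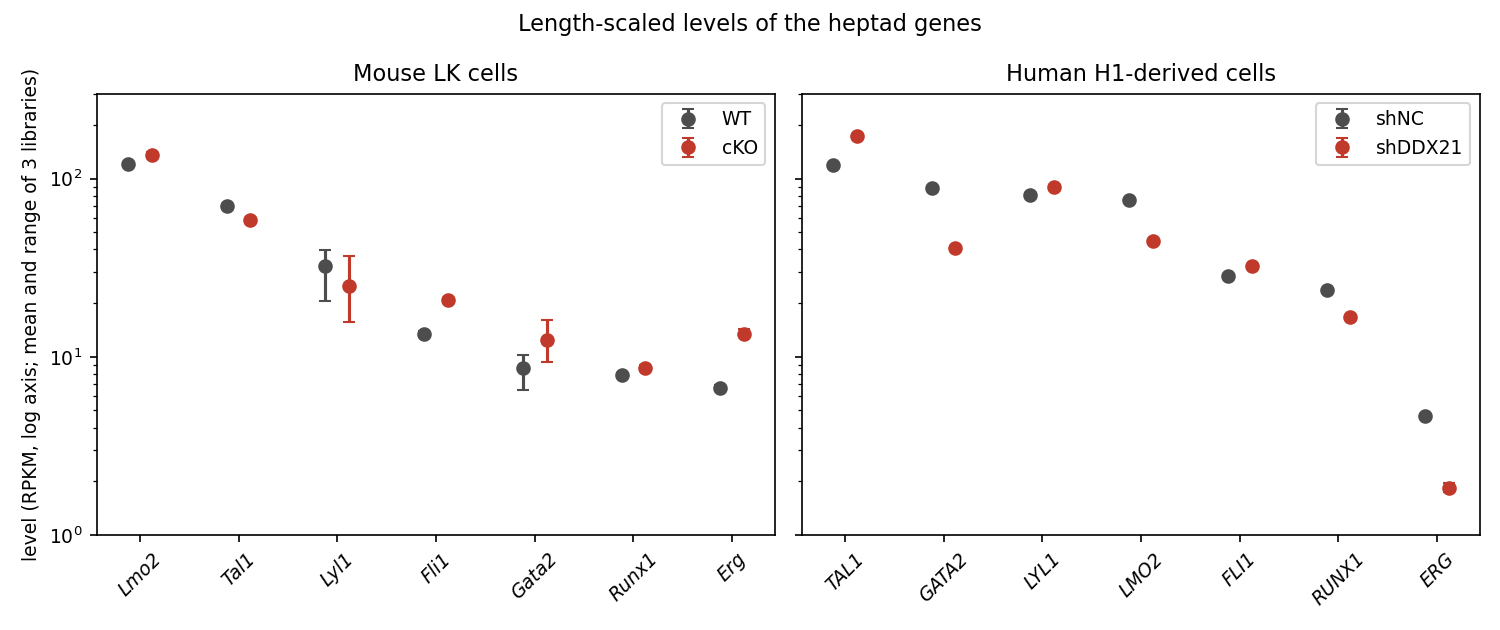
Levels of the heptad genes per kilobase of exon (RPKM, log axis), as the mean of 3 libraries with the range as bars, in mouse (left) and human cells (right), ordered by the control level. In the mouse cKO cells Erg rises to the level of Gata2, and in the human shDDX21 cells GATA2 falls below LYL1 and LMO2.

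Proteins that bind the heptad factors, directly or through LDB1, were examined as a list of 9. The counts called in this list and in the related lists below stand beside the shares of all genes tested. These were 20.7% higher and 15.8% lower in mouse, and 25.3% higher and 27.4% lower in human cells. A count near these shares says nothing particular of a list. In mouse cells 2 were called higher and 0 lower by edgeR (3 lower at an unadjusted p under 0.05 and 3 with DESeq2, 0 with limma-voom). Cbfb, the RUNX partner, rose from 71.1, 69.7 and 73.8 CPM in WT to 116, 127 and 117 CPM in cKO (log2 0.75, SE 0.050, edgeR adjusted p = 4.23e-05), and Tcf12, an E protein, rose by 0.22 (edgeR adjusted p = 0.00578). Tcf3, the E protein that pairs with TAL1 and LYL1, was at 204, 171 and 93.1 CPM in WT and 105, 45.3 and 72.7 CPM in cKO, and was not called (log2 -1.07, edgeR adjusted p = 0.0531). This value lay close to the threshold: Tcf3 was called lower in 10 of 16 alternatives, RLE (adjusted p = 0.0384), upper-quartile (0.0313) and total-count scaling (0.0465) and the omission of WT replicate 3 (0.0158) or cKO replicate 1 (0.0166) among them, and Ldb1, not called either (-0.49, adjusted p = 0.0636), in 9 of 16. The longest transcripts of Tcf3, Ldb1 and Zfpm1 are at the GC percentiles 98.2, 92.2 and 99.9. For these genes WT replicate 3 and cKO replicate 2 were the lowest libraries of their genotype, as for Lyl1. With the GC offset 4 of the 9 were called lower, Tcf3 (-0.80), Ldb1 (-0.35) and Zfpm1 (-0.34) among them; these 3 are named after their values were seen. In human cells 4 were called higher and 5 lower, with CBFB falling by 0.51 (SE 0.038, edgeR adjusted p = 2.41e-19), TCF3 falling by 0.46 and SSBP2, an LDB1-binding protein, rising by 0.33. The median log2 fold change of the list was -0.25 in mouse and -0.13 in human cells.

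Of 11 coregulators, the corepressors and coactivators that heptad complexes recruit, 0 were called higher and 3 lower by edgeR in mouse cells (1 higher at an unadjusted p under 0.05, 0 with DESeq2 and limma-voom). Gfi1b, a repressor that acts in the red cell and megakaryocyte lineages, fell by 0.78 (SE 0.18, edgeR adjusted p = 0.0139). The acetyltransferase Ep300 fell by 0.22 and Rcor1, a partner of the demethylase KDM1A, by 0.11. The Gfi1b call was lost without WT replicate 1, WT replicate 2 or cKO replicate 3 (adjusted p = 0.0504 to 0.0563), the Rcor1 call in 14 of 16 alternatives, and the number lower ranged from 1 to 6 (6 with the GC offset). In human cells 2 were higher and 7 lower, led by the deacetylases HDAC1 (-0.58) and HDAC2 (-0.40) and the acetyltransferase CREBBP (-0.48). The list's median log2 fold change was -0.02 in mouse and -0.23 in human cells.

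The ID proteins, which block E proteins and so keep TAL1 and LYL1 off DNA, were low in mouse cells (summed 7.42 to 10.4 CPM over all 6 libraries), and 0 of 3 tested were called by edgeR, DESeq2 or limma-voom, nor was any at an unadjusted p under 0.05. In 3 of 16 alternatives 1 ID gene was called lower, among them without WT replicate 3. Id3 had the lowest fold change (-1.10, edgeR adjusted p = 0.128), at means of 1.02 CPM in WT and 0.47 CPM in cKO. In human cells all 4 were called lower. ID1 went from 33.5, 36.9 and 31.4 CPM with shNC to 13.8, 11.8 and 10.9 CPM with shDDX21 (log2 -1.47, SE 0.078, edgeR adjusted p = 3.03e-27). ID4 fell by 1.05, ID2 by 0.52 and ID3 by 0.65, the last at under 2 CPM.

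Among 12 tested relatives of the members in mouse cells, 4 were called higher and 2 lower. The ETS genes Etv6 (0.58, SE 0.037, edgeR adjusted p = 3.62e-05), Ets2 (0.52) and Elf1 (0.40) rose, as did Runx2 (0.35), and Gata1 and the ETS gene Gabpa (-0.21) fell. In human cells 1 of 11 was higher, GATA1, and 7 were lower, among them ETS2 (-0.91), RUNX3 (-0.87) and ETS1 (-0.44). Etv6 was at 129, 123 and 121 CPM in WT and at 187, 184 and 185 CPM in cKO, whereas human ETV6 fell by 0.20. SPI1, the ETS factor of myeloid cells, was not called in mouse cells (0.05, edgeR adjusted p = 0.867) and fell by 0.17 in human cells. The mouse SPI1 value changed sign without WT replicate 3 or cKO replicate 1, and it was called higher with the GC offset (0.23, adjusted p = 0.024).

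**Figure D5:**
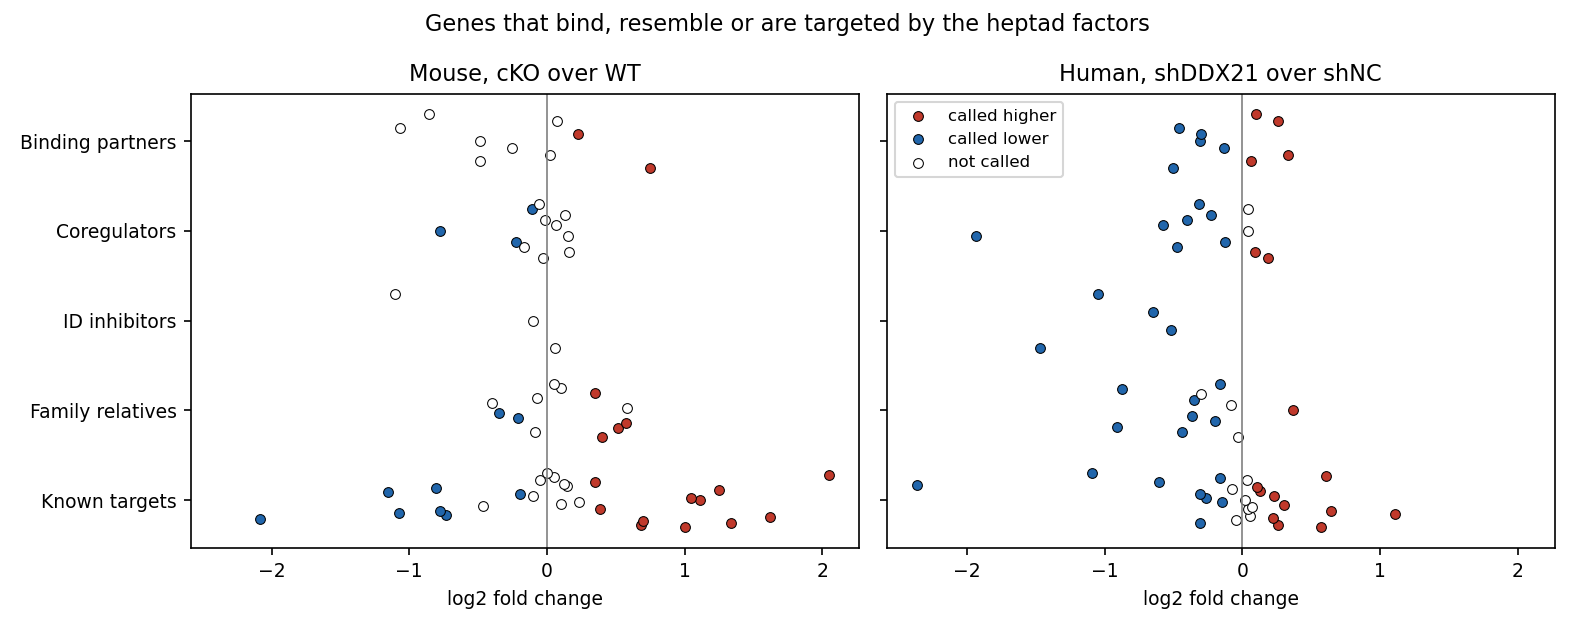
Log2 fold change of each tested gene in 5 lists of genes related to the heptad (rows), in mouse (left) and human cells (right); red points were called higher, blue lower and white not called. In human cells all 4 ID genes lie left of 0, and the known targets lie on both sides in both experiments.

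Genes described in textbooks as targets of heptad factors moved in both directions. In mouse cells 11 of 27 were called higher and 7 lower, with a median log2 fold change of 0.12. Those that rose included receptor and adhesion genes of stem cells, megakaryocytes and endothelium: Tek (2.05, SE 0.098, edgeR adjusted p = 1.02e-05), Eng (1.62), Itga2b (1.04) and Cd34 (0.69). Those that fell included Csf1r, the macrophage growth factor receptor (-2.08), the red cell genes Klf1 (-1.16), Epor (-1.07) and Epb42 (-0.74), and the granule enzyme gene Mpo (-0.81). Kit, a target as well as the sort marker, fell by 0.19 (edgeR adjusted p = 0.00334), a call lost with total-count scaling (adjusted p = 0.062). The Epor call was lost without WT replicate 1, WT replicate 2, cKO replicate 2 or cKO replicate 3 (adjusted p = 0.0614 to 0.124).

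In human cells 10 of 25 targets were called higher and 8 lower, with a median of 0.04. MPO fell most (-2.36, SE 0.042, edgeR adjusted p = 2.32e-55), from 164, 169 and 156 CPM with shNC to 34.0, 30.9 and 30.0 CPM. VWF (-1.09) and MYB (-0.61) also fell. The red cell genes EPB42 (1.11), EPOR (0.64) and ALAS2 (0.57) rose, and so did TEK (0.61), from 84.2, 83.8 and 85.8 CPM to 122, 134 and 132 CPM. TEK and ALAS2 (1.01 in mouse, edgeR adjusted p = 0.000152) were thus higher in both experiments, whereas Epor and Epb42 were lower in mouse and higher in human cells.

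Marker lists of cell types that may be present were described by the same test. Their counts stand beside 20.7% of all genes called higher and 15.8% lower in mouse, and 25.3% higher and 27.4% lower in human cells, and a share near these says nothing particular of a list. In mouse cells 9 of 10 stem cell markers were called higher, with a median log2 fold change of 1.50 and a summed level of 256 to 274 CPM in WT and 554 to 586 CPM in cKO. Mecom rose by 2.77, Mycn by 1.68 and Hlf by 1.62. Of 8 megakaryocyte markers 4 were higher (Itga2b 1.04, Gp5 1.02, Gp1ba 0.39; summed 92.1 to 107 CPM in WT and 143 to 191 CPM in cKO), and of 4 mast cell markers 2 were higher (Cpa3 0.70, Slc18a2 0.56; summed 94.0 to 99.6 and 128 to 136 CPM), with Tpsab1 at 0 in all 6 libraries. Of 9 granulocyte and monocyte markers 1 was higher and 8 lower (Elane -2.18, Csf1r -2.08, Irf8 -1.86; summed 713 to 975 and 365 to 618 CPM), and of 8 erythroid markers 2 were higher and 5 lower (summed 757 to 867 and 599 to 660 CPM). Of 5 lymphoid markers 4 were lower (Rag1 -2.86; summed 57.7 to 59.1 and 40.5 to 40.9 CPM). The part of these shifts in the changes of Erg, Fli1, Gata2 and Tal1 was not tested.

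Endothelium also expresses Erg and Fli1. In mouse cells 5 of 9 endothelial markers were higher (Tie1 1.21, Pecam1 0.43; summed 82.1 to 107 CPM in WT and 103 to 144 CPM in cKO). The endothelial markers Cldn5 and Sox17 were at 0 in all 6 libraries, and Cdh5, the endothelial cadherin, was at 0.19 to 0.63 CPM in WT and 0.95 to 1.31 CPM in cKO. Hepatocyte markers were higher in cKO, 4 of 4 tested, from a summed 1.41 to 1.81 CPM in WT to 29.0 to 32.6 CPM in cKO, with Alb up by 4.83 and Afp by 4.07. Of 2 macrophage markers tested 1 was lower (summed 2.60 to 3.26 and 1.34 to 2.00 CPM), with C1qc at 0 in all libraries. The part of these cells in the heptad changes was not tested.

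In the human cells 4 of 7 stem cell markers matched were higher and 3 lower, ANGPT1 (-1.42), MECOM (-0.79) and MYCN (-0.65), with a summed level of 689 to 698 CPM with shNC and 731 to 732 CPM with shDDX21. Mecom and Mycn thus rose in mouse and fell in human cells. Of 10 erythroid markers 5 were higher and 2 lower (summed 712 to 727 CPM with shNC and 755 to 776 CPM with shDDX21). Of 7 megakaryocyte markers 3 were higher, GP9 (0.30), TUBB1 (0.27) and ITGA2B (0.23), and 2 were lower. VWF, which is also in this list, fell as given above among the targets, at a mean under 5 CPM. The median log2 fold change of the megakaryocyte list was 0.07. Its summed level was 1549 to 1615 CPM with shNC and 1827 to 1856 CPM with shDDX21. Of 11 endothelial markers 3 were higher and 5 lower, led by FLT1 (-1.61), PLVAP (-1.15) and EGFL7 (-0.55), with a summed level of 2119 to 2175 CPM with shNC and 1779 to 1792 CPM with shDDX21. Of 7 granulocyte and monocyte markers 1 was higher and 5 were lower (MPO -2.36, IRF8 -1.22, CSF3R -0.25; summed 732 to 749 and 594 to 607 CPM). Of 4 macrophage markers 3 were lower (C1QB -1.10, C1QC -0.46; summed 47.4 to 55.0 and 34.6 to 36.5 CPM). Of 6 mast cell markers 2 were lower and 4 were not called (SLC18A2 -0.68; summed 379 to 386 and 374 to 378 CPM), a share near that of all genes. Of 4 lymphoid markers 1 was lower (IL7R -2.32; summed 33.3 to 36.1 and 11.3 to 12.7 CPM), and the 1 hepatocyte marker tested, TF, was lower (-0.48). The part of these shifts in the falls of ERG and GATA2 was not tested.

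For each member, the gene outside the heptad with the most similar pattern was found among 8104 genes with at least 5 CPM in both experiments, by the root mean square difference of control-centred log2 CPM over 12 libraries. These were SYF2, a splicing factor, for TAL1 (0.045), FSCN1, an actin-bundling protein, for LYL1 (0.055), GSKIP for LMO2 (0.043), ADGRG1, the adhesion receptor GPR56, for GATA2 (0.17), GNL2, a nucleolar GTPase, for RUNX1 (0.045), NEFH, a neurofilament gene, for ERG (0.12) and ATG16L2 for FLI1 (0.058). The median difference over all candidates was 0.31 to 0.84, depending on the member. ADGRG1 changed by 0.38 in mouse (edgeR adjusted p = 0.00449) and -1.09 in human cells (9.62e-20). NEFH changed by 1.13 in mouse (edgeR adjusted p = 0.000181) and -1.34 in human cells (5.41e-23). That these values are close to those of ERG follows from the way NEFH was chosen, and the same holds for the other genes. The measure holds few independent contrasts, since the 12 libraries form only 2 comparisons.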

How the data were processed

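Poly(A) RNA of 12 libraries was analysed, 3 per group. Per the submitters' processing notes, the authors used STAR, featureCounts and DESeq2 with mm10 and hg38; versions and the strand setting are not given in the sources used here. The deposited raw files give integer read counts for each gene, its position and its exon length. The deposited normalized tables hold scaled counts (unit: signal) and log2 values of these over the control mean; here they served only to pair gene identifiers with symbols, and 56 mouse and 128 human identifiers carried several symbols, for which a listed symbol was preferred. Mouse positions are those of the deposited table; 6 of the 7 members have the same position in GENCODE M21 (GRCm38), Lyl1 being the exception.

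Raw counts were tested per experiment with edgeR 4.0.16 in R 4.3.3 (filterByExpr, TMM scaling, quasi-likelihood test), Benjamini-Hochberg adjusted over all genes tested, with a threshold of 0.05. The SE is the absolute log2 fold change divided by the root of F, and intervals cover 95%. The difference between experiments was an interaction term over symbol-matched genes. The biological coefficient of variation was 10.5% in mouse and 2.23% in human libraries. Pairs of libraries of 1 group differed by more than sampling noise (chi-square per degree of freedom 1.54 to 25.1), so none was treated as a duplicate of another; this does not show that they are biological replicates. The code was tested on simulated data.

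Named genes were the 7 members, DDX21, GATA1 and SPI1, up to 3 called genes per list and experiment with the largest change and at least 5 CPM, and the most similar gene to each member (prior count 2); further genes were named after their values were seen. The members and lists were chosen with earlier results of these data known. Alternatives were RLE (the DESeq2 factors), upper-quartile and total-count scaling, no filter, at least 10 counts in every library, DESeq2 1.42.0, limma-voom 3.58.1, a replicate block, and each library left out; 2 were added after the data were seen, a GC offset (spline with 5 degrees of freedom, mouse only) and leaving out WT replicate 3 with cKO replicate 2. Groups of 3 against 3 limit exact permutation tests to p = 0.1.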

Additional observations from a re-analysis of the deposited data

Results flagged for a closer look

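For 6 members the effect of DDX21 loss differed between the mouse and the human cells in the interaction test (edgeR's quasi-likelihood test over 12 libraries, Benjamini-Hochberg adjusted over 10331 genes, of which 56.2% passed). The mouse log2 fold change minus the human one was 2.35 for ERG (adjusted p = 1.69e-09), 1.63 for GATA2 (0.000146), 0.94 for LMO2 (1.34e-08), 0.61 for RUNX1 (5.13e-07), 0.46 for FLI1 (1.37e-05) and -0.80 for TAL1 (5.26e-09). For FLI1 both effects were rises, and for GATA2 and RUNX1 the mouse effect was not itself called.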

How the results depend on the processing

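The human counts of members called, 3 higher and 4 lower, were the same under all 14 alternatives, and the mouse count lower was 1 under all 16. The mouse count higher was 3 and ranged from 2 to 5 when 1 library was left out, with 5 without cKO replicate 2, where GATA2 and RUNX1 were also called. The log2 fold change of SPI1 in mouse changed sign without WT replicate 3 (-0.11) and without cKO replicate 1 (-0.10), from 0.05; it ranged from -0.11 to 0.20 with 1 library left out. The mouse fold changes of ERG (0.92 to 1.08), FLI1 (0.55 to 0.72) and TAL1 (-0.31 to -0.19) kept direction and call under all 16 alternatives. The difference between experiments was called for 6 or 7 members under 20 alternatives. Genes called ranged from 3717 to 7384 in mouse and from 8931 to 10890 in human cells, and in mouse the GC offset gave the highest number.

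Replicate numbers did not pair the samples: the correlation of same-numbered libraries' deviations was 0.639, -0.424 and 0.075 in mouse and -0.026 to -0.003 in human cells. With a replicate block, 4 mouse members were called higher and 1 lower, with 5166 mouse and 10601 human genes called, 3 and 4 human members, and 6 members with a different effect. GATA2 in mouse was then 0.50 (adjusted p = 0.0483), and TCF3 (-1.07, adjusted p = 0.0259), LDB1 (-0.49, 0.0237) and 1 ID gene were called lower. Mouse LYL1 and GATA2 had at least 755 counts per library. The cause of changes between alternatives was not tested.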
